A study of Mus musculus with 24 samples.

Results

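The 8 genes described here make, move and break down dopamine: *Th*, *Ddc* and *Gch1* for synthesis, *Slc6a3* and *Slc18a2* for transport, *Maoa* and *Maob* for breakdown, and *Dbh*, whose enzyme turns dopamine into noradrenaline. They were taken by symbol from the deposited tables, which together list 30270 genes, and all 8 were found. RNA was sequenced from bilateral punches of the nucleus accumbens (NAc) and the ventral tegmental area (VTA) of C57BL/6 mice. The same library numbers recur in both regions, and each number was taken as 1 mouse. This gives 12 mice, 3 in each of 4 groups, with 1 library per region each. The groups were wild-type (WT) and vitamin D receptor knockout (*Vdr*-/-) mice, each given phosphate-buffered saline (PBS) or morphine sulfate at 5 mg/kg. All injections were intraperitoneal. The study's results place the punches 90 min after injection, whereas its methods give 60 min for saline-injected mice used as tissue controls. The study describes the *Vdr*-/- mice as receptor knockouts and names no restriction of the knockout to a tissue or age. They were raised on a diet enriched in calcium and lactose, and age and sex are not given in the sources used here. The study asked whether the loss of vitamin D signaling alters the response of these reward regions to morphine.

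Dopamine neurons of the VTA send their axons to the NAc, and their cell bodies, where most of their mRNA lies, stay in the midbrain. Tyrosine hydroxylase (*Th*) makes L-DOPA in the rate-limiting step, with a cofactor whose synthesis begins with GTP cyclohydrolase (*Gch1*), and aromatic amino acid decarboxylase (*Ddc*) turns L-DOPA into dopamine. The vesicular transporter VMAT2 (*Slc18a2*) loads vesicles, the plasma membrane transporter DAT (*Slc6a3*) takes released dopamine back up and is largely restricted to dopamine neurons, and the monoamine oxidases, which glia and other neurons also make, degrade what is left in the cytoplasm.

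Short promoter stretches of *Th* and *Ddc*, the enzymes that act in sequence and whose mRNA levels ran together in the VTA, are shown 5′ to 3′ on the gene's own strand, with the matched letters in capitals (RefSeq, GRCm38.p6). They end at or before the annotated transcription start.
*Th*, chr7:142899996-142900080, minus strand: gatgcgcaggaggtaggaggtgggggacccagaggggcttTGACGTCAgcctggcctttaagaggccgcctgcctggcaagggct
*Ddc*, chr11:11898170-11898257, minus strand: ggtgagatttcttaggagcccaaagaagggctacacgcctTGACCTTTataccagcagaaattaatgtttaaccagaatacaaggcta
The capitals in *Th*, 45 to 38 bases before the start, are the cAMP response element TGACGTCA, which 508 of 32851 promoter windows of 250 bases held (1.55%). Those in *Ddc*, 73 to 66 bases before the start of promoter entry 1, are the NBRE element AAAGGTCA bound by Nr4a family factors, read on the opposite strand. On either strand, 1.34% of windows held this element. Promoter entry 2 of *Ddc*, with its window at chr11:11890359-11890658, held neither element in the 250 bases searched. Which of these promoters the VTA mRNA came from was not tested. A direct repeat of AGGTCA or GGTTCA spaced by NNN, the kind of element that VDR binds and whose AGGTCA lies inside the NBRE, was searched on both strands. It was found in 0.0152% of all windows and in none of the windows of the 7 genes that the promoter table holds (*Maob* has no entry). These are matches of letters and show no binding.

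All 7 genes with enough reads to be tested were higher in the VTA than in the NAc of the same mice. With limma on log2(normalized count + 1), mouse as a block and Benjamini-Hochberg adjustment over 16147 genes, 7 of 7 passed an adjusted p of 0.05, beside 71.5% of all genes. *Slc6a3* differed most, by 7.66 on the log2 scale (SE 0.49, adjusted p = 2.6e-09). *Slc18a2* followed at 5.43 (SE 0.49), then *Th* at 4.11 (SE 0.35), *Ddc* at 3.51 (SE 0.33) and *Gch1* at 3.05 (SE 0.32). The oxidases differed far less, *Maoa* by 0.91 (SE 0.05) and *Maob* by 0.63 (SE 0.06). In PBS mice alone and in morphine mice alone 7 of 7 also passed, and over those fits and the others tried the *Th* difference ranged from 3.20 to 5.00.

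The 8 genes lie on 7 chromosomes (GRCm38, GENCODE M21): *Th* at chr7:142892752-142931128, *Ddc* at chr11:11814101-11898144, *Gch1* at chr14:47153895-47189413, *Slc6a3* at chr13:73536747-73578672, *Slc18a2* at chr19:59260896-59296012, *Maoa* at chrX:16619698-16687818, *Maob* at chrX:16709282-16817366 and *Dbh* at chr2:27165233-27183200, and reads were counted over their exons. Levels of different genes were compared per length, as reads per kilobase of merged exon and per 1000000 reads on genes (RPKM). In the VTA of WT mice given PBS, *Slc6a3* stood highest at 282 ± 42.7 RPKM (SD, n = 3), followed by *Th* at 154 ± 22.0 RPKM. *Slc18a2* at 72.3 ± 8.85 RPKM and *Ddc* at 57.4 ± 6.57 RPKM came next, and their libraries did not overlap. *Maoa* reached 15.2 ± 0.88 RPKM, *Maob* 11.2 ± 1.66 RPKM and *Gch1* 2.60 ± 0.25 RPKM. The order was another in the NAc of the same mice: *Maob* at 7.81 ± 0.70 RPKM and *Maoa* at 6.64 ± 0.49 RPKM, with overlapping libraries, lay above *Th* at 3.14 ± 0.77 RPKM, *Ddc* at 1.66 ± 0.52 RPKM and *Slc6a3* at 0.29 ± 0.05 RPKM.

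*Dbh* was close to absent. It had 0 reads in 9 of 12 VTA libraries and at most 2 in the others, and a count of 0 allows up to 0.0994 to 0.209 CPM (reads per 1000000 reads on genes) in these 9 libraries, for counting error only. In the NAc it had 0 to 14 reads per library. It was below the mean normalized count of 10 that a gene needed to be tested, in every comparison. At a mean of at least 1 it was tested in 4 NAc comparisons without a call and in the region comparison, where all 8 genes were called. *Slc6a2*, the noradrenaline transporter that marks noradrenaline neurons, lay at 0 to 0.126 CPM in the VTA libraries.

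Other enzymes and transporters of monoamine metabolism, a list of 21 genes, gave a background for the region difference. Of the 15 tested, 11 were called higher and 3 called lower in the VTA, beside 71.5% of all genes called in either direction. Their median was 0.41 on the log2 scale beside 0.02 over all genes tested. Among them were *Qdpr*, which regenerates the cofactor of *Th*, higher by 0.94, the dopamine aldehyde dehydrogenase *Aldh1a1*, higher by 3.83, and the mitochondrial aldehyde dehydrogenase *Aldh1b1*, at -0.96.

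The largest changes were in the VTA after morphine in WT mice, where the synthesis enzymes and both transporters were lower than after PBS. *Th* was at 425, 338 and 332 CPM in the 3 WT mice given PBS and at 34.5, 65.4 and 24.4 CPM in the 3 given morphine, an 8.81-fold difference of the means. *Ddc* was at 288, 250 and 230 CPM after PBS and at 38.9, 52.6 and 24.1 CPM after morphine. The ranges of the injections stayed far apart for both genes, and mouse 1.2 was lowest of the morphine mice each time.

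The transporters followed the same order of mice. *Slc6a3* was at 1144, 902 and 877 CPM after PBS and at 29.6, 157 and 14.1 CPM after morphine, so the morphine mice also differed widely among themselves. *Slc18a2* was at 431, 354 and 347 CPM after PBS and at 54.8, 69.9 and 28.5 CPM after morphine. *Gch1*, the least abundant of the 5, was at 17.9, 15.8 and 14.95 CPM after PBS and at 3.87, 4.93 and 2.72 CPM after morphine, the last resting on 39 reads.

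**Figure D1:**
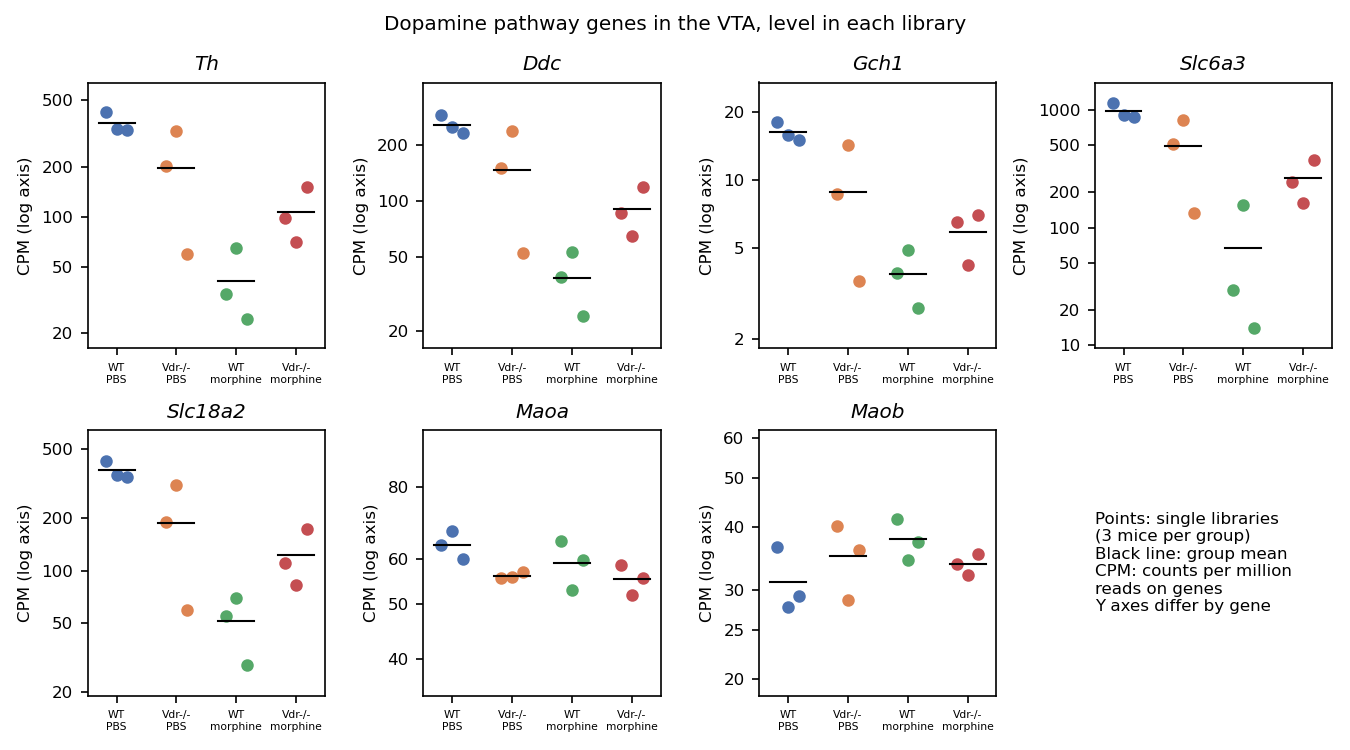
Level of 7 dopamine pathway genes in each VTA library, in CPM on a log axis (axes differ by gene), for WT and *Vdr*-/- mice given PBS or morphine, with points for single libraries and black lines for means of 3 mice. The 3 WT morphine mice lie at 24.4 to 65.4 CPM of *Th* against 332 to 425 CPM in WT PBS mice, *Vdr*-/- PBS mice spread from 59.6 to 325 CPM, and *Maoa* and *Maob* stay within narrow ranges.

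In the deposited table of this comparison, which holds WT PBS mice 1 and 2 and the 3 morphine mice, 5 of 7 tested genes were called and all 5 were lower, beside 3.65% of all 16187 genes called in either direction. The log2 change was -3.35 for *Th* (SE 0.38, limma adjusted p = 0.012), -2.90 for *Ddc* (SE 0.29, adjusted p = 0.0095) and -2.19 for *Gch1* (SE 0.25, adjusted p = 0.012). For *Slc18a2* it was -3.06 (SE 0.34, adjusted p = 0.012), and for *Slc6a3* -4.68 (SE 0.90, adjusted p = 0.045). With WT PBS mouse 3 added the same 5 genes were called, *Th* at -3.27 (SE 0.32, adjusted p = 0.0021). The calls depended on the libraries and the variance model: none remained without WT PBS mouse 1 or without mouse 2, which leaves 1 PBS library, and none remained in limma without the trend (adjusted p = 0.061 to 0.13).

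The oxidases did not pass the test. *Maoa* was at 63.4, 67.2 and 59.8 CPM after PBS and at 64.4, 52.8 and 59.5 CPM after morphine, a log2 change of -0.18 (SE 0.08, adjusted p = 0.24) with overlapping groups. *Maob*, which lies 21463 bases from *Maoa* on the X chromosome (GRCm38), was at 36.4, 27.8 and 29.1 CPM after PBS and at 41.4, 34.4 and 37.4 CPM after morphine, a log2 change of 0.21 (SE 0.13, adjusted p = 0.36). The transcripts of these paralogs share 11 words of 25 bases, 0.27% of those of *Maoa* and 0.39% of those of *Maob*. Over all 12 VTA libraries *Maoa* spanned a factor of 1.298 and *Maob* 1.49, against 17.4 for *Th*, 11.95 for *Ddc*, 15.1 for *Slc18a2*, 6.60 for *Gch1* and 80.9 for *Slc6a3*.

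Of 15 tested genes of the wider monoamine list, 3 were called in this comparison, all lower: *Aldh1a7* (log2 change -4.17), *Aldh1a1* (-2.17), which dopamine neurons use to detoxify the aldehyde of dopamine, and *Qdpr* (-0.57). Of all genes tested, 3.65% were called in either direction and 1.88% were called lower. The median of the list was -0.10, beside -0.01 over all genes.

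The markers of dopamine neurons that take no part in dopamine metabolism moved with these genes. The 17 tested include the transcription factors *En1*, *Lmx1b* and *Foxa1*, the receptor subunit *Chrna6* and the GDNF receptor *Ret*. In WT mice after morphine none of the 17 had a log2 change above 0 and 12 were called lower, beside 1.88% of all genes. The median of the 17 was -1.77. Their summed level was 1168 to 1452 CPM in WT PBS libraries and 266 to 445 CPM in WT morphine libraries, and none of the 17 was at 0 throughout a group. In bulk tissue, fewer dopamine neurons in a punch and less RNA of these genes per neuron cannot be told apart.

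Markers of the lateral hypothalamus, which lies rostral to the VTA, moved the other way in some libraries. *Pmch*, the gene of melanin-concentrating hormone, was at 559 and 709 CPM in WT morphine mice 1.0 and 1.2, at 122 CPM in mouse 1.1, and at 6.09, 88.5 and 7.02 CPM in the WT PBS mice. *Hcrt*, the orexin gene, was at 176, 47.3 and 246 CPM in the WT morphine mice and at 0.08, 9.10 and 0.36 CPM in the WT PBS mice. The summed level of the 5 hypothalamic and mammillary markers was 213 to 994 CPM in WT morphine libraries against 33.6 to 142 CPM in WT PBS libraries, and no marker was at 0 throughout either group. Of the 5, 3 had a log2 change above 0 and 0 were called, with a median of 0.14. *Foxb1*, another of them, overlapped, at 23.6, 3.59 and 4.25 CPM after morphine and 13.6, 5.26 and 2.69 CPM after PBS. The part that punch position had in the result was not tested.

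Glial markers also moved in this comparison, in which 3.65% of all genes were called. All 6 microglia markers had a log2 change below 0, with a median of -0.75, and 4 were called, *Cx3cr1*, *P2ry12*, *Csf1r* and *C1qa*, and their summed level was 220 to 258 CPM in WT PBS and 127 to 146 CPM in WT morphine libraries. All 7 oligodendrocyte markers had one below 0, with a median of -0.81 and 0 called, at a summed 12196 to 13262 CPM against 6238 to 10242 CPM. Of 10 astrocyte markers 2 were called, *Aqp4* and *S100b*, both lower, with a median of -0.32. No glial marker was at 0 throughout either group, and their part in the result was not tested.

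*Slc6a3* was low beyond the other genes in the same 2 libraries with the most *Pmch* and *Hcrt*. Its ratio to *Th*, in reads, was 0.858 and 0.578 in WT morphine mice 1.0 and 1.2 and 2.24 to 2.69 in the other 10 VTA libraries, mouse 1.1 included. Over all 12 the ratio to *Th* spanned 0.677 to 1.13 for *Ddc*, 0.937 to 1.59 for *Slc18a2* and 0.0422 to 0.112 for *Gch1*. The ratio of *Gch1* to *Th* was highest in the same mice 1.0 and 1.2 (0.112 and 0.111), and that of *Slc18a2* and of *Ddc* was highest in mouse 1.0. With mice 1.0 and 1.2 left out, the log2 change from PBS to morphine in the fit of all remaining VTA libraries was -2.46 for *Th*, -2.27 for *Ddc*, -2.61 for *Slc6a3*, -2.42 for *Slc18a2* and -1.69 for *Gch1*, and 0 of the 5 were called (adjusted p = 0.10 to 0.16), with mouse 1.1 as the only WT morphine library.

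A fit over all 12 VTA libraries with the mean log2 level of 15 of the marker genes as a covariate called no morphine difference in WT mice. It gave *Th* 0.15 (SE 0.20), *Ddc* 0.05 (SE 0.25), *Gch1* 0.35 (SE 0.32), *Slc6a3* 0.27 (SE 0.57) and *Slc18a2* 0.21 (SE 0.32), each with a limma adjusted p of 0.998, where the same fit without the covariate gave -3.27, -2.81, -2.12, -4.60 and -2.99 and called all 5. The covariate lay at 7.34 to 8.29 in WT morphine libraries and at 9.61 to 9.93 in WT PBS libraries, so within WT mice the marker level and the injection cannot be told apart. Of all 16240 genes, 0 were called for morphine in WT mice with the covariate, against 3108 without it.

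**Figure D2:**
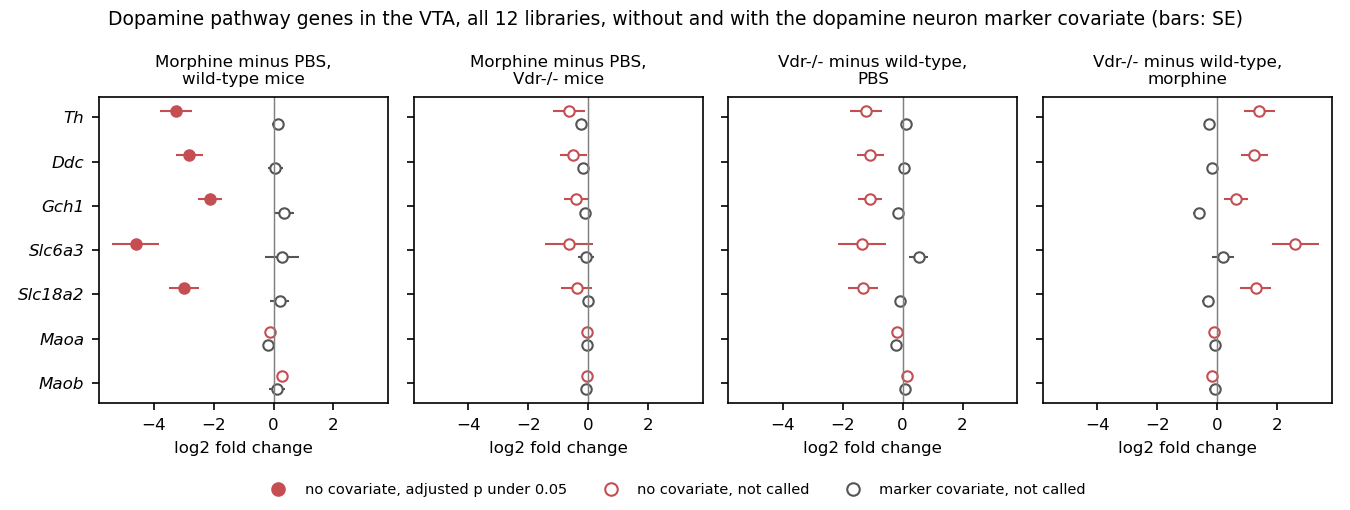
Log2 fold change of 7 dopamine pathway genes in the VTA, on the x axis with bars for the standard error, from limma over all 12 libraries without (red) and with (grey) the mean level of 15 dopamine neuron markers as a covariate, in 4 comparisons; filled points passed an adjusted p of 0.05. Morphine in WT mice moved from -3.27 to 0.15 for *Th* and from -4.60 to 0.27 for *Slc6a3* once the markers were in the fit.

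The synthesis enzymes and transporters varied together across VTA libraries. Over the 12 libraries, log2 CPM of *Th* correlated with that of *Ddc* at Pearson r = 0.997 (Spearman rho 0.993), *Slc18a2* at 0.992 (rho 1), *Gch1* at 0.976 (rho 0.986) and *Slc6a3* at 0.973 (rho 1). Each had a permutation p of 1e-05, the smallest that 100000 resamples can give, and an adjusted p of 1.7e-05 over the 7 genes compared with *Th*. Without WT morphine mice 1.0 and 1.2, the libraries farthest from the median of *Th*, r was 0.985 to 1.00 for these 4 genes. Within the 6 PBS libraries r was 0.994 to 1.00, and within the 6 morphine libraries 0.951 to 0.990.

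The remaining genes passed no such test. *Maoa* had r = 0.21 with *Th* (rho 0.25, permutation p = 0.51, adjusted p = 0.51), and r was 0.68 without WT morphine mice 1.0 and 1.2, 0.48 within PBS and -0.52 within morphine libraries. *Maob* had r = -0.56 (rho -0.50, permutation p = 0.061, adjusted p = 0.085), with -0.36 without those 2 mice and -0.43 and -0.61 within the injections. *Dbh*, at 0 to 2 reads, had r = 0.45 (permutation p = 0.15).

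**Figure D3:**
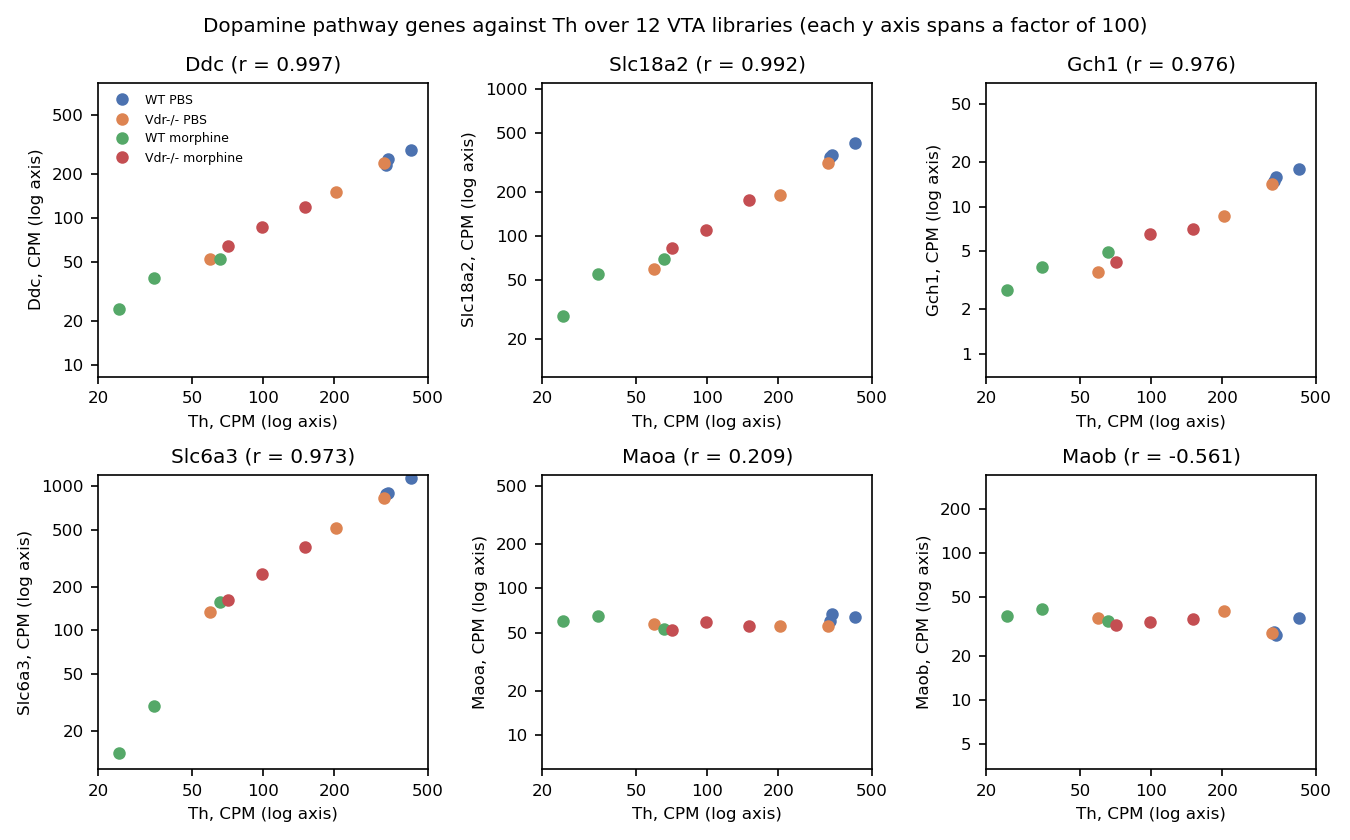
CPM of 6 dopamine pathway genes against CPM of *Th* in the 12 VTA libraries, both on log axes, colored by group, with Pearson r of log2 CPM in each title. *Ddc*, *Slc18a2* and *Gch1* rise with *Th* along a line, *Slc6a3* drops away from it in the 2 WT morphine libraries with the lowest *Th*, and *Maoa* and *Maob* stay level.

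With the group means removed, the genes most like *Th* over the 12 VTA libraries, among 16240, were *Ddc* (r = 0.990), *Slc18a2* (0.981), *Tigar* (0.978), *Gch1* (0.973) and *Slc10a4* (0.968). Those most like *Slc6a3* were *En1* (0.989), *Aldh1a7* (0.987), *Slc10a4* (0.986), *Chrna6* (0.986) and *Cnpy1* (0.984). *Ntn1* was in the first 5 for *Ddc* (0.955) and for *Slc18a2* (0.956), and *Lgi2* (0.961) and *Ankrd34b* (0.958) were in those for *Gch1*.

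In the VTA of *Vdr*-/- mice no dopamine pathway gene was called for morphine. The 3 *Vdr*-/- mice given PBS, mice 7, 8 and 9, spread widely: *Th* was at 203, 325 and 59.6 CPM, against 99.0, 70.8 and 151 CPM in the 3 given morphine. *Slc6a3* was at 513, 827 and 133 CPM after PBS and at 246, 163 and 378 CPM after morphine. The groups overlapped for both genes, and mouse 9 lay below all 3 morphine mice. The *Vdr*-/- morphine mice had 60.8 to 159 CPM of *Pmch* and 3.54 to 43.3 CPM of *Hcrt*, and their 5 hypothalamic and mammillary markers summed to 138 to 263 CPM, a range that overlaps with that of *Vdr*-/- PBS libraries. In the fit without PBS mouse 8, 3 of the 5 had a log2 change above 0, with a median of 0.05, and *Foxb1* was called, higher.

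The deposited table for this comparison leaves out *Vdr*-/- PBS mouse 8, the one with the highest levels. In it 0 of 7 genes were called by limma, 0 at an unadjusted p under 0.05, 0 by edgeR and 0 by DESeq2, beside 10% of all genes called. Log2 changes ran from -0.18 to 0.13. With mouse 8 included, the change was -0.63 for *Th* (SE 0.58, adjusted p = 0.51), -0.50 for *Ddc* (SE 0.50), -0.64 for *Slc6a3* (SE 0.63), -0.38 for *Slc18a2* (SE 0.56) and -0.40 for *Gch1* (SE 0.46), again with 0 called. Of the wider list only *Aldh2*, a mitochondrial aldehyde dehydrogenase, was called, at -0.50. Without mouse 8, 10 of 17 dopamine neuron markers were above 0, with a median of 0.09, and only *Nr4a2* was called, higher. With the marker covariate and all 12 VTA libraries, *Th* was at -0.24 (SE 0.10, limma adjusted p = 0.15) and *Slc6a3* at -0.08 (SE 0.27). Glial markers moved here too. Without mouse 8, all 7 oligodendrocyte markers were called lower, with a median of -0.76. None of 6 microglia markers was above 0, with a median of -0.42 and *P2ry12* called. Of 10 astrocyte markers 7 were above 0, with a median of 0.12, and only *S100b* was called, lower. Their part was not tested.

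The difference between the genotypes in their response to morphine in the VTA was tested as an interaction over the 10 libraries of both tables. It was 3.23 for *Th* (SE 0.74, limma adjusted p = 0.15), 2.88 for *Ddc* (SE 0.61, adjusted p = 0.13), 4.60 for *Slc6a3* (SE 1.23, adjusted p = 0.20), 3.20 for *Slc18a2* (SE 0.70, adjusted p = 0.14) and 2.24 for *Gch1* (SE 0.52, adjusted p = 0.16). None of 7 genes was called, 6 had an unadjusted p under 0.05, edgeR called 0, and 0.0553% of all genes were called. All 12 libraries together gave lower estimates, 2.63 for *Th* and 3.96 for *Slc6a3*, also with 0 called. Without *Vdr*-/- PBS mouse 7 or without WT morphine mouse 1.1, 4 of the genes passed.

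Among mice given PBS, the VTA of *Vdr*-/- mice had lower means of the same 5 genes, and none was called. *Th* averaged 196 ± 133 CPM (SD, n = 3) in *Vdr*-/- and 365 ± 52.1 CPM in WT mice, *Ddc* 146 ± 92.0 against 256 ± 29.3 CPM, and *Slc6a3* 491 ± 347 against 974 ± 148 CPM. *Slc18a2* averaged 187 ± 126 against 378 ± 46.2 CPM and *Gch1* 8.86 ± 5.38 against 16.2 ± 1.54 CPM. Every *Vdr*-/- library lay below every WT library for *Th*, *Slc6a3*, *Slc18a2* and *Gch1*, but mouse 8 came close to the lowest WT mouse (*Th* at 325 against 332 CPM), and for *Ddc* it overlapped with the WT mice. For *Th* and *Slc6a3* mouse 9 lay among the morphine-treated mice.

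Log2 changes were -1.22 for *Th* (SE 0.53, limma adjusted p = 0.35), -1.08 for *Ddc* (SE 0.47), -1.35 for *Slc6a3* (SE 0.57), -1.32 for *Slc18a2* (SE 0.52) and -1.10 for *Gch1* (SE 0.43). Of 7 genes 0 were called by limma, edgeR or DESeq2, 4 had an unadjusted p under 0.05, *Maoa* among them, and 0.390% of all genes were called. The size of the change rested on single mice: without *Vdr*-/- PBS mouse 9 it was -0.51 for *Th*, -0.46 for *Ddc*, -0.58 for *Slc6a3*, -0.64 for *Slc18a2* and -0.55 for *Gch1*, and without mouse 8 it was -1.74, -1.55, -1.91, -1.84 and -1.55, again with 0 of the 7 called (adjusted p = 0.054 to 0.085 for these 5) and with 370 of all genes called against 64 with every mouse. *Maoa* was at 55.5 to 56.8 CPM in *Vdr*-/- and 59.8 to 67.2 CPM in WT mice, and its adjusted p of 0.21 was the lowest of the 7. The 17 dopamine neuron markers showed the same pattern, with 16 below 0, 0 called and a median of -0.72, and summed to 432 to 1183 CPM in *Vdr*-/- PBS libraries. The hypothalamic gene *Pmch* was at 254, 3.14 and 190 CPM and *Hcrt* at 51.8, 0.48 and 30.4 CPM in *Vdr*-/- PBS mice 7, 8 and 9, so both were lowest in mouse 8, which had the most *Th*. The 5 hypothalamic and mammillary markers summed to 44.1 to 354 CPM in these libraries, with 5 of 5 log2 changes above 0, none called and none at 0 throughout a group, and their part in the result was not tested. With the level of the dopamine neuron markers as a covariate the values were 0.10 for *Th* (SE 0.12), 0.03 for *Ddc* (SE 0.15) and 0.53 for *Slc6a3* (SE 0.33). The covariate lay at 8.26 to 9.58 in *Vdr*-/- PBS libraries and at 9.61 to 9.93 in WT PBS libraries. Marker level and genotype thus cannot be told apart here. Of the wider list only *Sult1a1*, a sulfotransferase of phenols, was called, higher by 1.16 in *Vdr*-/- mice (adjusted p = 0.031).

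Among mice given morphine, the order of the genotypes was the opposite. *Th* averaged 107 ± 40.4 CPM in *Vdr*-/- and 41.5 ± 21.4 CPM in WT mice, and *Slc6a3* 262 ± 109 against 66.9 ± 78.4 CPM. For *Th*, *Ddc*, *Slc6a3* and *Slc18a2* the libraries of the genotypes did not overlap, the highest WT library being mouse 1.1 each time. Log2 changes were 1.41 for *Th* (SE 0.38, limma adjusted p = 0.44), 1.24 for *Ddc* (SE 0.30, adjusted p = 0.40), 2.61 for *Slc6a3* (SE 0.78, adjusted p = 0.49), 1.28 for *Slc18a2* (SE 0.36) and 0.62 for *Gch1* (SE 0.27). Of 7 genes 0 were called by limma, edgeR or DESeq2, 4 had an unadjusted p under 0.05, and 0.0624% of all genes were called. Without WT morphine mouse 1.1, *Slc6a3* alone was called (3.598, adjusted p = 0.029). Of the 17 dopamine neuron markers, 16 were above 0, none called, with a median of 0.82. With the markers as covariate *Th* was at -0.29 and *Slc6a3* at 0.19. The covariate lay at 8.39 to 9.12 in *Vdr*-/- and at 7.34 to 8.29 in WT morphine libraries. Here too marker level and genotype cannot be told apart. The 5 hypothalamic and mammillary markers summed to 138 to 263 CPM in *Vdr*-/- and 213 to 994 CPM in WT morphine libraries. Yet 3 of the 5 had a log2 change above 0, higher in *Vdr*-/- mice, with a median of 0.23 and 0 called. The part of these markers was not tested.

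**Figure D4:**
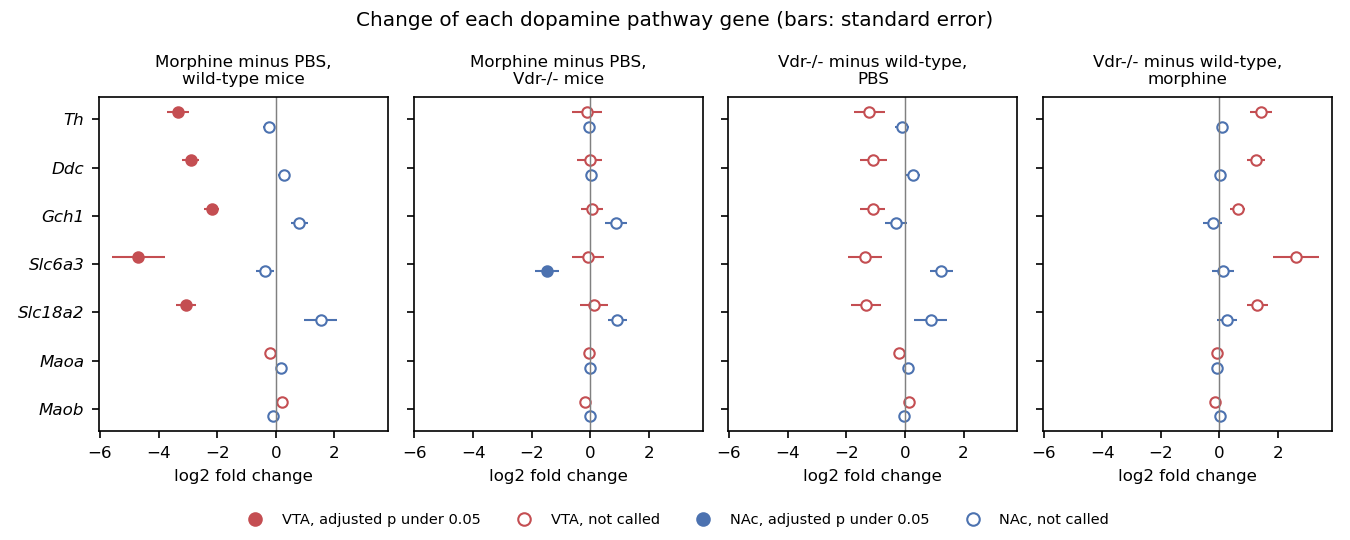
Log2 fold change of 7 dopamine pathway genes on the x axis, with bars for the standard error, in the VTA (red) and the NAc (blue), for morphine against PBS in each genotype and *Vdr*-/- against WT under each injection; filled points passed a limma adjusted p of 0.05. Only the 5 genes in the VTA of WT mice and *Slc6a3* in the NAc of *Vdr*-/- mice are filled.

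Relative to the dopamine neuron transcription factors *En1*, *Foxa1*, *Lmx1a* and *Lmx1b*, taken as the mean of their log2 CPM, the groups kept an order for *Th*. *Th* stood 4.04 ± 0.07 above the factors (log2, SD, n = 3) in WT PBS mice, 3.37 ± 0.84 in *Vdr*-/- PBS mice, 2.77 ± 0.16 in *Vdr*-/- morphine mice and 2.51 ± 0.29 in WT morphine mice. For *Gch1* the order was another: -0.45 ± 0.08, -1.0 ± 0.58, -1.36 ± 0.19 and -0.84 ± 0.15 in the same order of groups. The factors themselves are not confined to dopamine neurons in the midbrain, and no test was made on these ratios.

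In the NAc the same genes sat at low levels in all 12 libraries. *Th* ranged from 5.38 to 9.51 CPM (median 6.50), *Ddc* from 5.79 to 10.8 CPM (median 8.54) and *Slc18a2* from 0.602 to 7.55 CPM. *Slc6a3* ranged from 0.530 to 4.44 CPM, on 7 to 84 reads, and *Gch1* from 0.317 to 1.32 CPM, on 6 to 24 reads. *Maoa* ranged from 26.0 to 32.9 CPM and *Maob* from 18.9 to 24.7 CPM, the narrowest spreads of the 7.

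*Slc6a3* was the only one of these genes that limma called in the NAc, in *Vdr*-/- mice, where it was lower after morphine. It was at 1.43, 2.13 and 4.44 CPM after PBS (27, 36 and 84 reads) and at 0.530, 0.771 and 1.39 CPM after morphine (8, 14 and 13 reads). The groups did not overlap, though 1.39 and 1.43 CPM are next to each other. WT mice lay at 0.787 to 1.12 CPM after PBS and at 0.639 to 0.974 CPM after morphine, so the *Vdr*-/- PBS mice were the high group.

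The log2 change was -1.49 (SE 0.41, limma adjusted p = 0.028), 1 of 7 genes called, beside 19.1% of all genes in this comparison, and edgeR and DESeq2 also called it. It lost the call without *Vdr*-/- PBS mouse 9 (-1.05, adjusted p = 0.13), without morphine mouse 2.0 or 2.1 (adjusted p = 0.099 and 0.090) and in limma without the trend (adjusted p = 0.11). Marker lists moved in the same comparison: all 8 medium spiny neuron genes were called lower (median -0.59). In WT mice 0 of these 8 were above 0 after morphine, with a median of -0.63 and 2 called lower. In *Vdr*-/- mice 5 of 10 astrocyte markers were called higher and 1 lower. Of 6 microglia markers 4 were called lower, as were 4 of 7 oligodendrocyte markers. Of 9 tested genes of the dopamine neuron list, 5 had a log2 change above 0. Among the 9, 3 were called higher and 2 called lower, with *Ret* at 1.74 and *Drd2* at -0.59 among those called. The cell bodies of dopamine neurons lie in the midbrain, so in the NAc these changes cannot be read as theirs. Over the NAc libraries *En1* of this list had 0 to 3 reads and *Pitx3* 0 to 1. The summed level of the medium spiny neuron genes was 3629 to 4196 CPM after PBS and 2369 to 2710 CPM after morphine, with no gene at 0, and its part in the *Slc6a3* value was not tested.

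*Slc18a2* and *Gch1* had higher means after morphine in both genotypes, and limma called neither. *Slc18a2* was at 2.30, 0.602 and 1.80 CPM in WT mice given PBS and at 2.46, 7.55 and 3.84 CPM in those given morphine, a log2 change of 1.53 (SE 0.56, limma adjusted p = 0.25), and the change in *Vdr*-/- mice was 0.92 (SE 0.33, adjusted p = 0.071). In *Vdr*-/- mice *Slc18a2* was at 1.38, 3.31 and 3.49 CPM after PBS and at 4.70, 3.63 and 7.07 CPM after morphine, without overlap, and it was called by DESeq2 (0.86, adjusted p = 0.049), not by edgeR (adjusted p = 0.086), and by limma without *Vdr*-/- PBS mouse 8 (1.10, adjusted p = 0.042). *Gch1* changed by 0.81 in WT (SE 0.29, adjusted p = 0.24) and by 0.88 in *Vdr*-/- mice (SE 0.38, adjusted p = 0.13). In WT mice 0 of 7 genes were called by limma, edgeR or DESeq2, 2 had an unadjusted p under 0.05, and 0.813% of all genes were called. The exons of *Slc18a2* overlap those of *Gm29261* on the other strand, and whether counting used strand is not given in the sources used here.

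**Figure D5:**
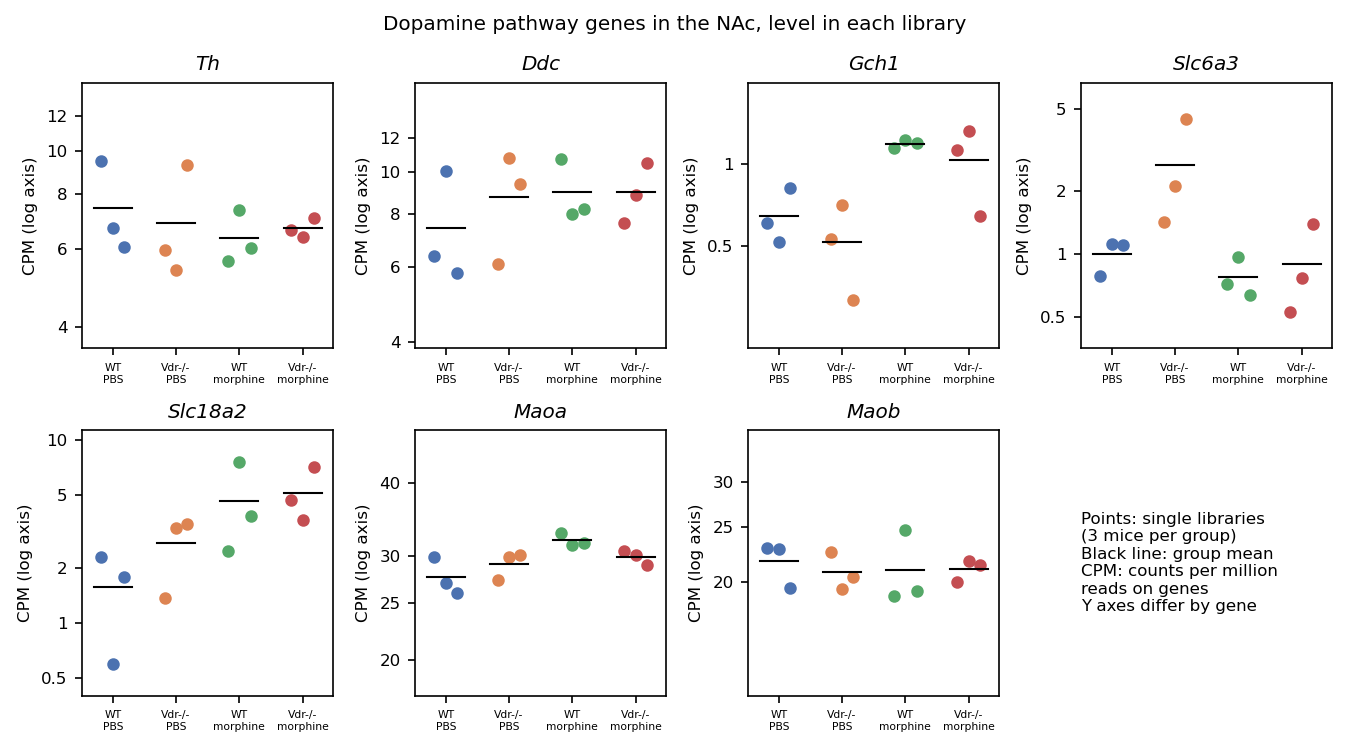
Level of 7 dopamine pathway genes in each NAc library, in CPM on a log axis (axes differ by gene), for WT and *Vdr*-/- mice given PBS or morphine, with points for single libraries and black lines for means of 3 mice. *Slc6a3* lies at 1.43 to 4.44 CPM in *Vdr*-/- PBS mice and at 0.530 to 1.39 CPM in the other 9 libraries.

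Genotype made no called difference in the NAc. After PBS 0 of 7 genes were called by limma, edgeR or DESeq2, beside 0.0690% of all genes, and 1 had an unadjusted p under 0.05, *Slc6a3*, at 1.24 in *Vdr*-/- against WT mice (SE 0.40, adjusted p = 0.47). After morphine 0 of 7 were called by the same tools and 0 had an unadjusted p under 0.05, beside 0.192% of all genes, and log2 changes ran from -0.24 to 0.25. The interaction in the NAc called 0 of 7 genes and 0% of all genes with limma, 0 genes with edgeR, and 916 genes had an unadjusted p under 0.05; for *Slc6a3* it was -1.12 (SE 0.58, adjusted p = 0.85). Of 14 tested genes of the wider list, 4 were called for morphine in *Vdr*-/- mice, beside 19.1% of all genes in that comparison: *Pcbd1*, which recycles the *Th* cofactor, at 0.93, the monoamine transporter *Slc29a4* at 0.86, and the aldehyde dehydrogenases *Aldh1b1* at -0.59 and *Aldh2* at -0.21.

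Reads of *Vdr*, the targeted gene, were 0 to 17 per library and not lower in *Vdr*-/- than in WT groups. These counts per gene did not separate the genotypes, which rest on the labels. Where in the gene the knockout lies is not given in the sources used here. Library depth, in reads on genes, lay between 9328726 and 30184426. Markers of serotonin neurons summed to at most 1.13 CPM in 11 VTA libraries and to 14.9 CPM in WT PBS mouse 2. PBS and morphine libraries also differ in the style of their names, and whether they were prepared together is not given, so injection and any such difference cannot be told apart.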

How the data were processed

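mRNA libraries of the nucleus accumbens and VTA from 12 mice (24 libraries) were analysed. Per the labels and the study's methods, the authors removed adapters with Trimmomatic 0.36, mapped with STAR 2.4.2a to GRCm38 with GENCODE genes, counted reads per gene and scaled them with DESeq2 (version not given in the sources used here), and their notes also name CASAVA 1.8. The deposited signal values are normalized counts, given in 8 tables, each for 2 groups. In all 46 columns 100% of values were whole multiples of 1 read (tolerance 0.01), so reads were recovered and CPM and RPKM computed from them, the latter with merged exon lengths of GENCODE M21. Of the 30270 genes, 11043 have no symbol. No library column was left out. Library depth was 9328726 to 30184426 reads on genes, and counting error is largest for genes with few reads, those of the nucleus accumbens above all.

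Genes with a mean of at least 10 were tested on log2(value + 1) within each table with limma 3.58.1 (trend, two-sided, Benjamini-Hochberg, threshold 0.05). Fold changes on this scale understate those of low genes. For morphine against PBS the deposited VTA tables have only 5 libraries each, so the interaction used 10. The region fit used reads of all 24 libraries with mouse as a block, since libraries with the same number in both regions were taken as 1 mouse. Deviations of a mouse from its group means correlated at -0.067 to 0.168 between regions. Alternatives were a pseudocount of 5, means of at least 1 or 50, no trend, edgeR 4.0.16, DESeq2 1.42.0, all libraries of a region, all 3 PBS libraries, a replicate block and leaving out each library. The marker covariate and the fit with WT morphine mouse 1.1 alone were added after the values were seen. Fits were tested on simulated data. Correlations used 100000 permutations.

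The genes named are the 8 genes of dopamine metabolism in every comparison, members of a 21-gene monoamine list where called, and the 5 genes most correlated with *Th* or with a gene called in the VTA. The 8 genes, the lists and the tests were chosen with earlier results of these data known. The labels number libraries but do not say how mice, litters or days were shared, so p-values measure the spread between these samples. Software was R 4.3.3 and Python 3.11.15 (pandas 2.3.3, numpy 2.4.6; figures with matplotlib 3.10.9).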

Additional observations from a re-analysis of the deposited data

How the results depend on the processing

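Of the 11 counts of called genes, those of 7 comparisons were the same or within 1.5 times under every alternative run. For morphine in the VTA of WT mice the 5 calls became 0 in limma without trend, 0 with the dopamine neuron markers as covariate, 0 with WT morphine library 1.1 alone and 0 to 5 when a library was left out, and were 4 with edgeR, 4 with a mean of at least 50 and 5 with DESeq2. For morphine in the NAc of *Vdr*-/- mice the 1 call became 0 with a mean of at least 50, where *Slc6a3* was not tested, 0 without trend, 2 with DESeq2 and 0 to 2 on leaving out a library. Leaving out a library gave 0 to 1 calls for genotype in the VTA after morphine and 0 to 4 for the VTA interaction.

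With the marker covariate signs turned for morphine in the VTA of WT mice (*Th* 0.15, *Ddc* 0.055, *Slc6a3* 0.27, *Slc18a2* 0.21, *Gch1* 0.35), for genotype after PBS (*Th* 0.10, *Ddc* 0.034, *Slc6a3* 0.53), for genotype after morphine (*Th* -0.29, *Ddc* -0.19, *Slc18a2* -0.31, *Gch1* -0.61) and for the interaction (*Th* -0.39, *Ddc* -0.22, *Slc6a3* -0.35, *Slc18a2* -0.23, *Gch1* -0.46). Their SEs ran from 0.12 to 0.58 and their limma adjusted p from 0.68 to 0.998, so none was called. The direction of these values is thus not established. In the WT morphine and genotype comparisons the covariate did not overlap between the groups, so it and the group cannot be told apart. The cause was not tested.

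A replicate block on the last digit of the morphine mice gave 0 calls among these genes in both regions, as without it, and 19 of all genes in the NAc and 4 in the VTA against 30 and 10. Deviations of same-digit mice from their group means correlated at -0.261 to -0.026. Libraries taken as 1 mouse in both regions reached only -0.067 to 0.168, so this measure cannot show whether the digit marks a pairing. Without the mouse block the region difference held for 7 of 7 genes. With 3 mice a group and 5 libraries in the VTA morphine tables, a miss of the threshold does not show equal levels, and in the NAc *Slc6a3*, *Gch1* and *Dbh* rest on few reads. An exact permutation of 3 mice against 3 cannot go below 0.1.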
